A study of Homo sapiens with 9 samples.

Results

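The epidermal growth factor (EGF) receptor family and its ligands were followed through the transcriptomes of A549, a cell line established from a human lung adenocarcinoma. The 10 genes were chosen by name: the 4 receptors EGFR, ERBB2, ERBB3 and ERBB4 and the 6 ligands AREG, EREG, HBEGF, TGFA, BTC and EPGN. Each matched 1 of the 57905 gene IDs in the deposited count table. The groups were 3 libraries of cells with a short hairpin RNA (shRNA) against AKR1B1 (shAKR1B1), 3 with an shRNA against SORD (shSORD) and 3 controls, titled plko and labelled as scrambled controls. AKR1B1 is aldose reductase, which makes sorbitol from glucose, and SORD is sorbitol dehydrogenase, which makes fructose from sorbitol, so the hairpins target the consecutive enzymes of the polyol pathway. All cells were grown with serum, and 1 hairpin label stands for each knockdown, so effects of a hairpin sequence cannot be told apart from loss of its target. The series calls the libraries biological replicates without saying whether they came from separate transductions, so the p-values reflect only how much these libraries vary, which may be technical.

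EGF-type ligands are made as membrane-anchored precursors, cut free by metalloproteases of the ADAM family, and bind receptor tyrosine kinases that then pair and phosphorylate each other. EGFR binds all 6 ligands, ERBB4 binds several of them as well as neuregulins, ERBB3 binds neuregulins but has little kinase activity of its own, and ERBB2 has no known ligand and acts as the preferred partner of the others. The receptors signal through RAS and ERK and through PI3-kinase and AKT. In lung adenocarcinoma the family is best known for activating EGFR mutations.

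Total counts were 32436524 to 43044456 per library. The hairpins lowered their targets: AKR1B1 was at 10.9% of its plko level in shAKR1B1 cells and SORD at 20.1% in shSORD cells. The other enzyme was lower too, by less. SORD was at 71.1% of its plko level in shAKR1B1 cells (edgeR adjusted p = 6.43e-06), and AKR1B1 at 75.1% in shSORD cells (adjusted p = 0.000131). The epithelial keratins KRT8, KRT18 and KRT7 were abundant. Of the other epithelial markers, CDH1 had 5005 to 13046 counts in a library, KRT19 only 211 to 718 and EPCAM 113 to 641. The 5 lineage markers of the alveolus were low: NAPSA had 37 to 101 counts in a library, SFTPC 4 to 15, NKX2-1 0 to 4, SFTPA1 0 to 1 and SFTPB 0. Libraries of shSORD differed more among themselves than the others: a chi-square per gene, which is near 1 for pure sampling noise, was 13.2 to 27.7 between shSORD libraries, 3.45 to 6.49 between shAKR1B1 libraries and 2.43 to 6.01 between plko libraries. Values are given as CPM, the counts of a gene in each 1000000 counts of its library after TMM scaling. Leukocyte markers summed to at most 0.678 CPM and endothelial markers to at most 0.232 CPM in any library, here by library totals without TMM scaling. A gene was called where the adjusted p of edgeR's quasi-likelihood test over all genes was under 0.05. In bulk RNA, fewer cells with a transcript and less transcript per cell cannot be told apart.

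With either hairpin ERBB2 and ERBB3 rose and 3 of the 6 ligands fell. ERBB3 rose 11.1-fold in shAKR1B1 cells and 8.06-fold in shSORD cells, and ERBB2 rose 2.36-fold with shAKR1B1 and 2.10-fold with shSORD. Among the ligands, AREG, EREG and HBEGF fell with both hairpins, while TGFA fell 3.09-fold with shSORD and was not called with shAKR1B1. EGFR moved little, and in opposite directions: it fell 1.21-fold in shAKR1B1 cells and rose 1.14-fold in shSORD cells.

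In shAKR1B1 cells 2 of the 10 genes rose, 4 fell, 2 were not called and 2 were below the expression filter. In that comparison 57.4% of all 16916 genes tested were called, 27.8% higher and 29.6% lower. In shSORD cells 3 rose, 4 fell, 1 was not called and the same 2 were below the filter, beside 56.5% of all genes called, 27.5% higher and 29% lower. A call is therefore common here, and the size of a change says more than its presence. Changes of at least 2-fold were called higher in 8.45% and lower in 3.93% of all genes with shAKR1B1, and in 8.02% and 3.1% with shSORD. Of the 8 members tested, 2 were higher and 3 lower by that measure with shAKR1B1 (ERBB3 and ERBB2; AREG, EREG and HBEGF), and 2 higher and 3 lower with shSORD (ERBB3 and ERBB2; AREG, EREG and TGFA). The median log2 fold change of the 8 was -0.24 with shAKR1B1 and -0.20 with shSORD, against 0.00 for all genes in both comparisons. Both comparisons share the plko libraries. Set directly against each other, shAKR1B1 cells were higher than shSORD cells for 3 members, lower for 2 and not called for 3, beside 30.6% of all genes called, 15.5% higher and 15.1% lower. With the replicate number fitted as a block, the count was 4 higher and 3 lower, with ERBB2 and HBEGF added. The labels give no pairing of libraries, and this block rests on deviations seen in these same data. CPM ranges did not overlap for 69.1% of all genes between shAKR1B1 and plko, for 60.1% between shSORD and plko and for 40.1% between shAKR1B1 and shSORD, so a gap between groups is common as well.

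**Figure D1:**
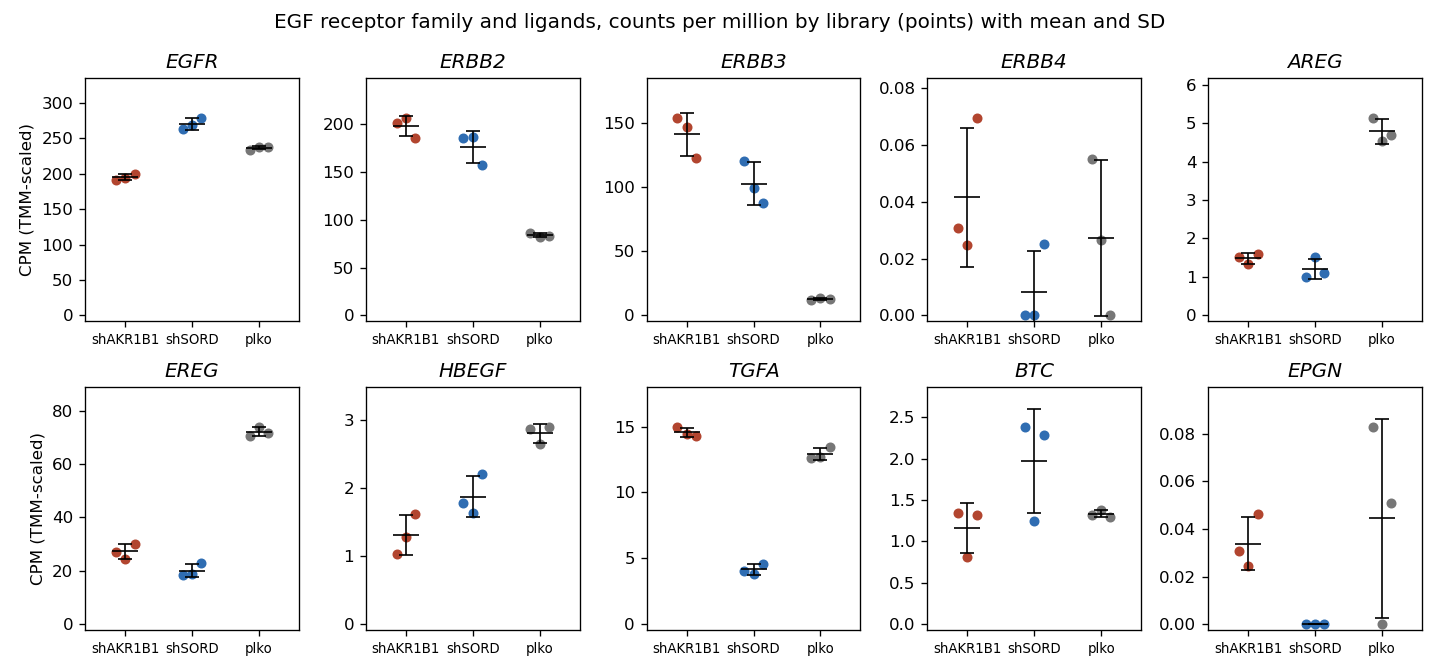
CPM of each of the 10 genes (vertical axis, linear, a scale per panel) in the shAKR1B1, shSORD and plko libraries (points), with the mean and SD of each group (n = 3). ERBB3 is at 123 to 154 CPM in shAKR1B1 libraries and 87.7 to 121 CPM in shSORD libraries, above 11.7 to 13.8 CPM in plko libraries, while EREG and AREG lie below their plko values in every knockdown library.

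Among the receptors, ERBB3 changed most. It was at 154, 147 and 123 CPM in the shAKR1B1 libraries, at 121, 99.5 and 87.7 CPM in the shSORD libraries and at 11.7, 13.8 and 12.6 CPM in the plko libraries. Every knockdown library lay far above every plko library, and the lowest of them still held 3497 counts against at most 522 in a plko library. The log2 fold change was 3.47 with shAKR1B1 (SE 0.121, adjusted p = 1.03e-11) and 3.01 with shSORD (SE 0.12, adjusted p = 6.94e-11). Ranked from the largest rise, ERBB3 stood at place 85 of the 16916 genes with shAKR1B1 and at place 70 with shSORD. Its level was higher in shAKR1B1 than in shSORD cells (141 ± 16.6 against 103 ± 16.8 CPM, SD, n = 3 each; log2 fold change 0.46, SE 0.104, adjusted p = 0.00362). The groups' ranges were close, with 123 CPM as the lowest shAKR1B1 value and 121 CPM as the highest shSORD value.

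ERBB2, the receptor without a ligand, was at 201, 206 and 186 CPM in shAKR1B1 libraries, at 185, 186 and 157 CPM in shSORD libraries and at 86.1, 81.5 and 83.2 CPM in plko libraries. Both knockdown groups stood clear of the plko libraries, while the knockdown ranges overlapped each other. The log2 fold change was 1.24 with shAKR1B1 (SE 0.069, adjusted p = 1.5e-09) and 1.07 with shSORD (SE 0.0688, adjusted p = 1.02e-08). Between the knockdowns it was 0.17 (adjusted p = 0.0754), and 0.17 with adjusted p = 0.0342 where the replicate number was fitted as a block. ERBB2 shares exon bases with PGAP3 and MIEN1 on the opposite strand, and the strand setting of the counting is not given in the sources used here. MIEN1 had 1689 to 2208 counts in shAKR1B1 libraries, 1569 to 1966 in shSORD libraries and 1948 to 2069 in plko libraries. PGAP3 had 796 to 1071 counts in shAKR1B1 libraries, 784 to 1002 in shSORD libraries and 756 to 826 in plko libraries. ERBB2 itself had 6561 to 8361 counts in shAKR1B1 libraries, 6251 to 7629 in shSORD libraries and 3077 to 3273 in plko libraries. The part of these overlaps in the ERBB2 counts was not tested.

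EGFR, the founding receptor of the family, was at 192, 195 and 199.7 CPM in shAKR1B1 libraries, at 263, 268 and 279 CPM in shSORD libraries and at 234, 238 and 238 CPM in plko libraries. The 3 groups did not overlap, in the order shSORD, plko, shAKR1B1 from high to low. The log2 fold change was -0.28 with shAKR1B1 (SE 0.0472, adjusted p = 0.00015) and 0.19 with shSORD (SE 0.0471, adjusted p = 0.00295). Between shAKR1B1 and shSORD it was -0.47 (SE 0.0472, adjusted p = 2.66e-06). These changes are small beside the rise of ERBB3, and over the 17 alternative settings they ranged from -0.29 to -0.22 with shAKR1B1 and from 0.18 to 0.26 with shSORD without losing a call. Calls in opposite directions with the 2 hairpins were found in 309 of the 16916 genes tested. EGFR-AS1, on the opposite strand, had at most 1 count in a library.

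ERBB4, a receptor of neuregulins and of some EGF-type ligands, was close to absent. It had 1, 1 and 3 counts in shAKR1B1 libraries, 0, 0 and 1 in shSORD libraries and 2, 1 and 0 in plko libraries, at or under the limit of 3 counts that a library with no count allows. No fold change is given for it.

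Because ERBB2 and ERBB3 rose while EGFR hardly moved, the makeup of the receptor messages differed. For each count of EGFR, shAKR1B1 libraries held 1.05, 1.06 and 0.929 counts of ERBB2, shSORD libraries 0.705, 0.692 and 0.562, and plko libraries 0.368, 0.343 and 0.35. Counts of ERBB3 per count of EGFR were 0.805, 0.756 and 0.614 in shAKR1B1 libraries, 0.459, 0.371 and 0.314 in shSORD libraries and 0.0501, 0.0582 and 0.053 in plko libraries. These ratios are formed within a library and do not depend on scaling between libraries.

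Levels of different genes are comparable only per length, so CPM was divided by the kilobases of merged exons of each gene. On that scale EGFR made up 29.5% to 33.6% of the summed receptor level in shAKR1B1 libraries, 40.1% to 47.2% in shSORD libraries and 65.97% to 66.8% in plko libraries. The share of ERBB3 was 28.5% to 32.9% in shAKR1B1 libraries, 20.6% to 25.5% in shSORD libraries and 4.58% to 5.39% in plko libraries. In plko cells the order was EGFR (18.9 CPM per kb), ERBB2 (8.10) and ERBB3 (1.41), each apart from the next beyond its spread. In shAKR1B1 cells ERBB2 (19.1 CPM per kb) was above EGFR (15.6) and ERBB3 (15.6), which did not differ beyond their spread. In shSORD cells EGFR (21.6 CPM per kb) was followed by ERBB2 (17.1) and ERBB3 (11.4). The place of ERBB2 depends on the length used: with the longest transcript it came above EGFR in shSORD cells too (35.7 against 27.5 CPM per kb), and ERBB3 came above EGFR in shAKR1B1 cells (23.9 against 19.9 CPM per kb). In plko cells the order was the same with either length.

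**Figure D2:**
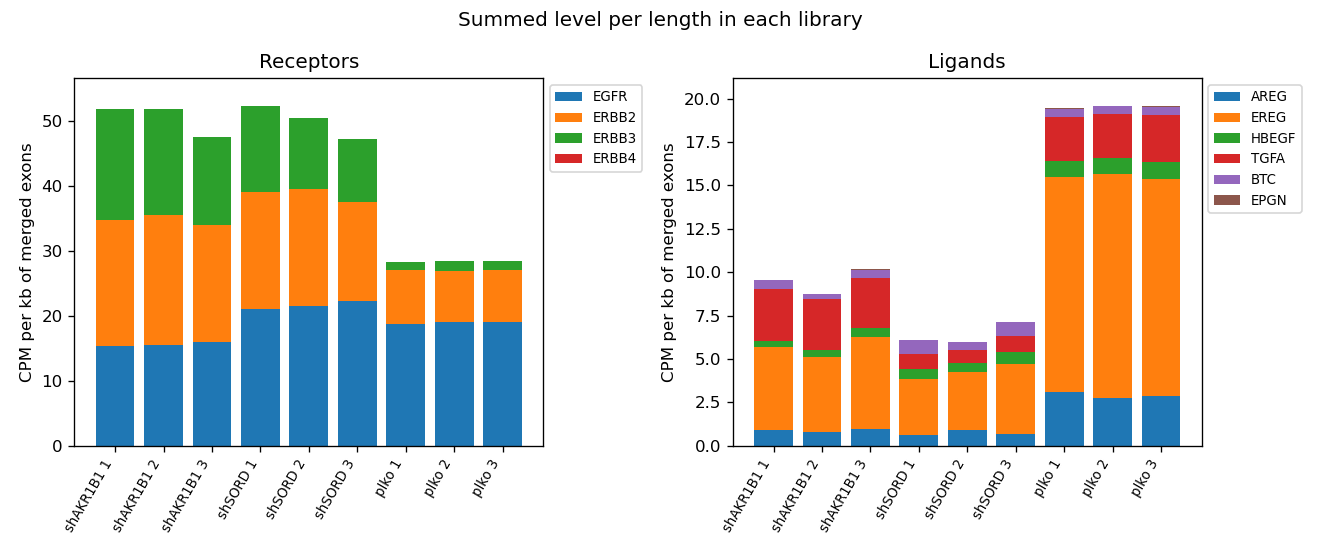
Summed level in CPM per kilobase of merged exons of the 4 receptors (left) and the 6 ligands (right) in each of the 9 libraries, stacked by gene. The receptor sum is 47.5 to 51.8 in shAKR1B1, 47.2 to 52.4 in shSORD and 28.3 to 28.5 in plko libraries, and the ligand sum is 8.74 to 10.2 in shAKR1B1, 5.98 to 7.15 in shSORD and 19.5 to 19.6 in plko libraries.

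Of the 6 ligands, EREG (epiregulin, which binds EGFR and ERBB4) was the most abundant per length in every library. AREG (amphiregulin) and EREG are neighbours of BTC and EPGN: the start windows of these 4 genes lie on chromosome 4 within 487 kb, from 74308220 to 74794773 in GRCh38. The RefSeq windows from 250 bases before to 50 after the gene start (GRCh38.p14) are printed for the 3 ligands that fell with both hairpins, 5′ to 3′ on the gene's strand, with matches to 5 motifs in capitals.
AREG, chr4:74444886-74445185, plus strand: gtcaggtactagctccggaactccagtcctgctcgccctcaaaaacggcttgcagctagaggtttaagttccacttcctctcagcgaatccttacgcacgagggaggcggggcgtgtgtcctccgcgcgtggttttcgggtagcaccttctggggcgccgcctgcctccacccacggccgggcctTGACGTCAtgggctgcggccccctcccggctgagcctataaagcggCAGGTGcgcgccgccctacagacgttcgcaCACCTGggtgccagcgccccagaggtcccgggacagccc
EREG, chr4:74364895-74365194, plus strand: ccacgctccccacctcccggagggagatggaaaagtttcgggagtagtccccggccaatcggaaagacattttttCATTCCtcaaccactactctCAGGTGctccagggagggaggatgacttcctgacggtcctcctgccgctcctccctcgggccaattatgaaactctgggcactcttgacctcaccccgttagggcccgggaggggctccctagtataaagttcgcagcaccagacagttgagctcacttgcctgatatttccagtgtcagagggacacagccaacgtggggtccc
HBEGF, chr5:140346554-140346853, minus strand: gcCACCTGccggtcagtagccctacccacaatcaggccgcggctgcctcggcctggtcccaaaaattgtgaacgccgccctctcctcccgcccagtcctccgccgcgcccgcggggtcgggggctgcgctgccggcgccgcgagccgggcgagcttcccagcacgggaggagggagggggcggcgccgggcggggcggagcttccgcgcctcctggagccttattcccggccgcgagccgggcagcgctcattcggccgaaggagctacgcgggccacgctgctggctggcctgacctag
The motifs, searched on both strands, were CACCTG (an E-box), TGANTCA (AP-1), GCCNNNGGC (AP-2), CATTCC (TEAD) and TGACGT (part of a cyclic AMP response element). Capitals in AREG are 2 E-boxes and 2 overlapping matches to TGACGT, those in EREG 1 TEAD match and 1 E-box, and the one in HBEGF an E-box. The E-box letters were in 20.6% of the 27305 windows in the table, TEAD in 14% and TGACGT in 8.32%. Of the 9 member windows in the table, 4 held an E-box (AREG, EREG, HBEGF and BTC), and those of EGFR, ERBB2, ERBB4, TGFA and EPGN did not. The window of ERBB2 held 1 AP-1 match, against 7.76% of all windows, those of EGFR and TGFA held 3 and 1 AP-2 matches, against 23% of all windows with any, and no window for ERBB3 was used. Such matches describe these letters only.

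EREG was at 27.2, 24.6 and 30.2 CPM in shAKR1B1 libraries, at 18.5, 18.9 and 22.9 CPM in shSORD libraries and at 70.6, 73.9 and 71.8 CPM in plko libraries. The highest knockdown library, at 30.2 CPM, stayed far below the lowest plko library, at 70.6 CPM. The log2 fold change was -1.40 with shAKR1B1 (SE 0.087, adjusted p = 5.04e-09) and -1.84 with shSORD (SE 0.0888, adjusted p = 5.37e-10). The fall was deeper with shSORD, and the difference between shAKR1B1 and shSORD, at 0.44 (SE 0.0898), passed the test (adjusted p = 0.00158). Counted from the largest fall, EREG was at place 351 of 16916 with shAKR1B1 and at place 125 with shSORD.

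AREG, a ligand of EGFR alone, had 1.53, 1.33 and 1.60 CPM in shAKR1B1 libraries, 1.01, 1.51 and 1.10 CPM in shSORD libraries and 5.13, 4.53 and 4.68 CPM in plko libraries. It fell 3.21-fold with shAKR1B1 (log2 fold change -1.68, SE 0.149, adjusted p = 2.14e-07) and 3.94-fold with shSORD (-1.98, SE 0.153, adjusted p = 6.95e-08). The knockdown groups overlapped, and the difference between shAKR1B1 and shSORD was not called (0.30, adjusted p = 0.23). AREG has another near-identical copy in the genome build of these counts, and the treatment of reads that fit several places is not given, so its level is uncertain. Its values rest on 39 to 69 counts per knockdown library and 171 to 186 per plko library.

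HBEGF (heparin-binding EGF-like growth factor) was at 1.04, 1.28 and 1.62 CPM in shAKR1B1 libraries, at 1.79, 1.63 and 2.21 CPM in shSORD libraries and at 2.87, 2.65 and 2.90 CPM in plko libraries. All knockdown libraries were below all plko libraries. It fell 2.10-fold with shAKR1B1 (log2 fold change -1.07, SE 0.171, adjusted p = 8.09e-05) and 1.5-fold with shSORD (-0.58, SE 0.162, adjusted p = 0.00669). Between shAKR1B1 and shSORD the value was -0.49 (adjusted p = 0.0507), and -0.50 with adjusted p = 0.0317 with the replicate block.

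TGFA (transforming growth factor alpha) was the ligand that differed most between the knockdowns, where EREG and BTC were called too. It was at 14.97, 14.4 and 14.3 CPM in shAKR1B1 libraries, at 4.06, 3.85 and 4.61 CPM in shSORD libraries and at 12.6, 12.7 and 13.5 CPM in plko libraries. The log2 fold change with shAKR1B1 was 0.17 (SE 0.0775, adjusted p = 0.0696): every shAKR1B1 library was above every plko library, but the gene was not called, and it was called higher under 6 of 17 alternatives. With shSORD the log2 fold change was -1.63 (SE 0.0873, adjusted p = 1.53e-09). The difference between shAKR1B1 and shSORD was 1.80 (SE 0.0866, adjusted p = 1.56e-09), place 118 of 16916 from the largest, and TGFA was the only member to differ by at least 2-fold between them, beside 2.47% of all genes higher and 2.72% lower by that measure. Each count of TGFA was met by 1.82, 1.70 and 2.11 counts of EREG in shAKR1B1 libraries, 4.55, 4.91 and 4.97 in shSORD libraries and 5.597, 5.82 and 5.33 in plko libraries.

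BTC (betacellulin) and EPGN (epigen) were scarce. BTC was at 1.35, 0.814 and 1.32 CPM in shAKR1B1 libraries, at 2.38, 1.24 and 2.28 CPM in shSORD libraries and at 1.32, 1.38 and 1.30 CPM in plko libraries, so that 2 shSORD libraries were high and 1 was not. It was not called against plko (log2 fold change -0.21 with shAKR1B1, adjusted p = 0.512, and 0.56 with shSORD, adjusted p = 0.0581). Without shSORD replicate 2 the value with shSORD was 0.80 (adjusted p = 0.00191). Between shAKR1B1 and shSORD it was -0.76 (adjusted p = 0.0264) with overlapping ranges, a call that ended when shAKR1B1 replicate 2 (adjusted p = 0.115), shSORD replicate 1 (0.107) or shSORD replicate 3 (0.0572) was left out. EPGN had 1, 1 and 2 counts in shAKR1B1 libraries, 0 in each shSORD library, which allows up to 0.0777 CPM, and 3, 0 and 2 in plko libraries. Of the 4 neighbours on chromosome 4, AREG and EREG thus fell with both hairpins, BTC was not called against plko with either, and EPGN was too low to test.

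Per length, EREG made up 49.1% to 51.9% of the summed ligand level in shAKR1B1 libraries, 53% to 56.1% in shSORD libraries and 63.4% to 65.9% in plko libraries. TGFA made up 28.4% to 33.3% in shAKR1B1 libraries, 12.98% to 13.4% in shSORD libraries and 13.1% to 13.9% in plko libraries. In plko cells AREG (2.90 CPM per kb) and TGFA (2.603) followed EREG (12.6), and HBEGF (0.93) and BTC (0.473) came after them. In shAKR1B1 cells the order was EREG (4.78), TGFA (2.94) and AREG (0.903). In shSORD cells EREG (3.52) stood above TGFA (0.841), AREG (0.733), BTC (0.699) and HBEGF (0.621), which did not differ beyond their spread from their neighbours in that order.

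**Figure D3:**
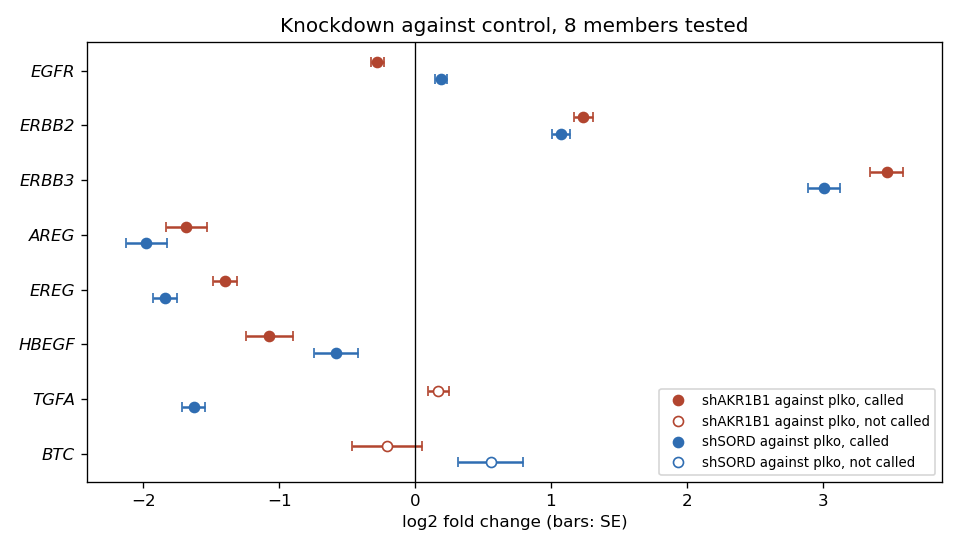
Log2 fold change against plko (horizontal axis, bars are SE) of the 8 genes that passed the expression filter, for shAKR1B1 (red) and shSORD (blue), filled where the adjusted p was under 0.05. ERBB3 and ERBB2 lie to the right with both hairpins, AREG, EREG and HBEGF to the left, EGFR on either side of 0, and TGFA far to the left with shSORD only (-1.63 against 0.17, a difference of 1.80 that passed the test).

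Epithelial and fibroblast markers also moved between the groups. The 11 epithelial and lung adenocarcinoma markers summed to 12399 to 13020 CPM in shAKR1B1 libraries, 10868 to 13095 in shSORD libraries and 8435 to 8703 in plko libraries (by library totals), and 7 of the 11 had at least 10 counts in every library. KRT8 and KRT18 held most of this sum. They, KRT19, EPCAM, CDH1 and NAPSA had more raw counts in every knockdown library than in any plko library, NAPSA by only 56 against 55 at the closest. KRT7 did not: it had 36817 to 53210 counts in shAKR1B1, 60707 to 81019 in shSORD and 74498 to 78376 in plko libraries. Such gaps are common here: CPM ranges did not overlap for 69.1% of all genes between shAKR1B1 and plko and for 60.1% between shSORD and plko. The 5 fibroblast markers summed to 8.67 to 10.03 CPM in shAKR1B1 libraries, 34.8 to 56.5 CPM in shSORD libraries and 14.1 to 15.9 CPM in plko libraries. COL1A1 held most of these counts, with 293 to 388 in shAKR1B1 libraries, 1224 to 1887 in shSORD libraries and 532 to 623 in plko libraries. COL1A2 had 1 to 7 counts in shAKR1B1 libraries, 43 to 217 in shSORD libraries and 4 to 11 in plko libraries. COL3A1 and PDGFRB were likewise highest in shSORD libraries, at 25 to 111 and 16 to 46 counts, and DCN had at most 4 counts in any library. Their part in the changes of the receptors and ligands was not tested.

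Genes around the family were read from 5 lists. Of all genes tested, 27.8% were called higher and 29.6% lower with shAKR1B1, and 27.5% and 29% with shSORD. Between shAKR1B1 and shSORD 15.5% were higher and 15.1% lower. Counts of a list near these shares are no result about that list. Other ligands of the family moved both ways with both hairpins, 1 higher and 2 lower of 4 tested of 5. EGF, the ligand that gave the family its name, rose 2.95-fold with shAKR1B1 and 2.85-fold with shSORD (adjusted p = 2.28e-05 and 3.49e-05). Its level was low, with 74 to 82 counts in shAKR1B1 libraries, 57 to 92 in shSORD libraries and 24 to 27 in plko libraries. NRG1 (neuregulin 1, a ligand of ERBB3 and ERBB4) was at 41.5 ± 1.94 CPM in shAKR1B1 cells, 53.8 ± 5.71 CPM in shSORD cells and 80.8 ± 1.52 CPM in plko cells (SD, n = 3 each). Its log2 fold change was -0.96 with shAKR1B1 (adjusted p = 3.93e-08) and -0.59 with shSORD (adjusted p = 7.14e-06). NRG2, another neuregulin, had log2 fold changes of -0.59 with shAKR1B1 and -1.34 with shSORD (adjusted p = 0.000732 and 6.57e-07). NRG3 had 0 counts in every library. The median of the list was -0.26 with shAKR1B1 and -0.27 with shSORD.

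Genes that release the ligands were called 4 higher and 3 lower of 9 with shAKR1B1 (median log2 fold change 0.04) and 6 higher and 2 lower with shSORD (median 0.21), and between shAKR1B1 and shSORD 0 of 9 were higher and 6 lower. With shAKR1B1 the proteases ADAM12 and ADAM19 fell (log2 fold change -2.26 and -1.59), while ADAM9, a protease of the same family, rose by 0.62 (adjusted p at most 2.99e-07). ADAM9 rose by 0.62 with shSORD as well (adjusted p = 4.17e-07). With shSORD ADAM12 fell (log2 fold change -1.65), and ADAM8, also of that family, and RHBDF1, an inactive rhomboid protein that regulates ADAM17, rose by 0.78 and 0.62 (adjusted p at most 8.89e-05). With shAKR1B1 ADAM8 rose by 0.40 and RHBDF1 by 0.33 (adjusted p = 0.0157 and 0.00237), and ADAM19 was not called with shSORD (-0.09, adjusted p = 0.292). ADAM17, the main sheddase of AREG, EREG, HBEGF and TGFA, was at 113 ± 1.67 CPM in shAKR1B1 cells (log2 fold change 0.04, adjusted p = 0.578), at 125 ± 11.5 CPM in shSORD cells (0.19, adjusted p = 0.0165) and at 109 ± 0.957 CPM in plko cells. RHBDF2, also on this list, fell with shAKR1B1 (log2 fold change -0.58, adjusted p = 5.57e-06) and with shSORD (-0.29, adjusted p = 0.00251). ADAM10 rose by 0.53 with shAKR1B1 and by 0.53 with shSORD (adjusted p = 1.32e-05 and 1.67e-05). ADAM17, RHBDF2 and ADAM10 were named after their values were seen.

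Inhibitors and turnover factors of the receptors showed 4 higher and 2 lower of 11 tested with shAKR1B1 (median 0.08) and 1 higher and 2 lower with shSORD (median 0.00). Scaling moved these counts: with upper-quartile scaling or library totals they were 4 higher and 1 lower with shAKR1B1, and 2 higher and 1 lower with shSORD. With shAKR1B1 the feedback inhibitor ERRFI1 and the ubiquitin ligase CBLB rose (log2 fold change 0.51 and 0.53), and the phosphatase PTPN1 fell (-0.56, all with adjusted p at most 5.27e-05). With shSORD ERRFI1 was at 0.03 and CBLB at 0.05 (adjusted p = 0.651 and 0.609). With shSORD PTPN1 was at -0.43 (adjusted p = 8.88e-06), LRIG1, which promotes degradation of the receptors, at -0.21 (adjusted p = 0.0392), and SOCS3, an inhibitor of cytokine signalling, at 0.19 (adjusted p = 0.049). LRIG1 was at -0.20 with shAKR1B1 too (adjusted p = 0.0459), and SOCS3 at -0.12 (adjusted p = 0.215). Adaptors, kinases and RAS genes stood at 6 higher and 10 lower of 22 with shAKR1B1 (median -0.13) and 5 higher and 10 lower with shSORD (median -0.12). With shSORD the count was 6 higher and 5 lower under upper-quartile scaling, and 6 and 6 with library totals. HRAS, a RAS GTPase, fell with shAKR1B1 (log2 fold change -0.68) and with shSORD (-1.46), and the adaptor GAB1 rose with both (0.83 with shAKR1B1 and 0.52 with shSORD, all with adjusted p at most 0.00193). MAP2K1, the kinase MEK1 that activates ERK, fell with shAKR1B1 (-0.66, adjusted p = 6.6e-08) and with shSORD (-0.42, adjusted p = 7.51e-06).

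Genes that respond to ERK signalling fell in part with both hairpins and in part differed between them. With shAKR1B1 7 of 20 rose and 9 fell (median -0.17), and with shSORD 1 rose and 14 fell (median -0.54). Set directly against each other, 14 of the 20 were higher in shAKR1B1 than in shSORD cells and 1 was lower, beside 15.5% and 15.1% of all genes (median 0.38, against 0.01 for all genes). Of the 20 genes, 8 fell with both hairpins, FOSL1 and PHLDA1 among them, and 1 rose with both, the phosphatase DUSP5, named after its values were seen. The share of all genes called the same way with both hairpins was not computed, and both comparisons share the plko libraries. The counts with both are therefore no result about this list. FOSL1, an AP-1 transcription factor, fell with shAKR1B1 (log2 fold change -1.56, adjusted p = 9.86e-08) and with shSORD (-1.91, adjusted p = 2.19e-08). With shAKR1B1 SPRY1, an inhibitor of receptor signalling, and FOS, an immediate early AP-1 factor, rose by 1.48 and 1.32 (adjusted p at most 5.33e-06). Neither was called with shSORD, at 0.02 for SPRY1 and 0.15 for FOS (adjusted p = 0.928 and 0.28), and the difference between shAKR1B1 and shSORD passed the test for both (1.45 and 1.17, adjusted p at most 1.61e-05). PHLDA1, a pleckstrin homology domain protein, fell with shAKR1B1 (log2 fold change -1.18, adjusted p = 5.6e-09) and with shSORD (-1.67, adjusted p = 2.63e-10). The ephrin receptor EPHA4 fell with shSORD (-1.23, adjusted p = 7.42e-06) and was at -0.25 with shAKR1B1 (adjusted p = 0.135). The phosphatase DUSP6, the inhibitor SPRY2 and the ETS factors ETV4 and ETV5, named after their values were seen, rose with shAKR1B1 (log2 fold change 0.64, 0.58, 0.61 and 0.30) and fell with shSORD (-0.41, -0.37, -0.56 and -0.73), with adjusted p of at most 0.0111. They were the only genes of the 5 lists called in opposite directions.

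**Figure D4:**
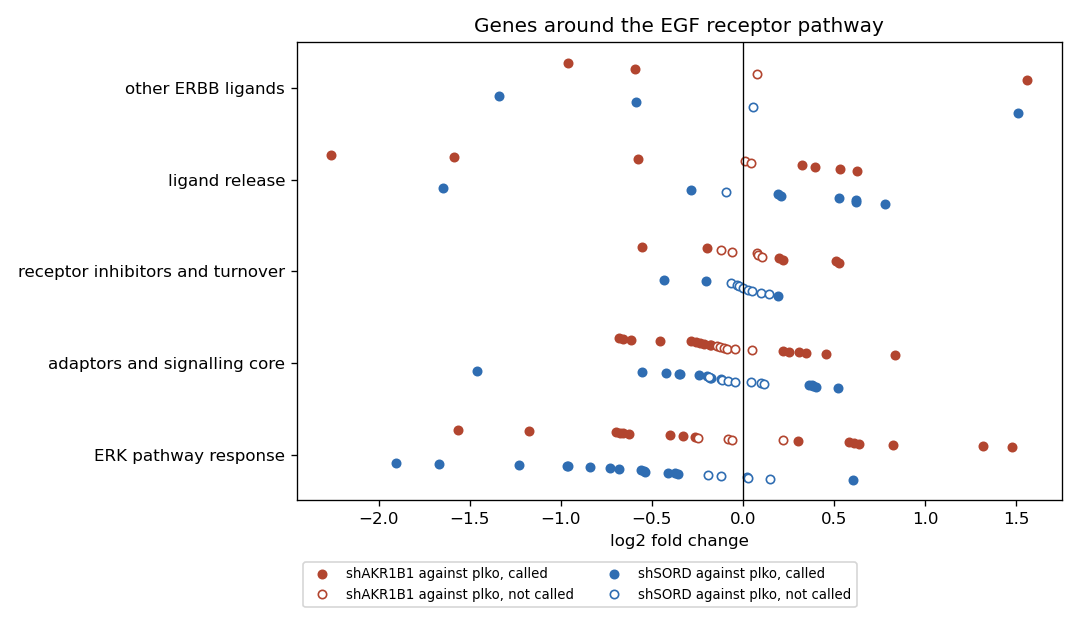
Log2 fold change against plko (horizontal axis) of every tested gene in the 5 lists around the family, for shAKR1B1 (red) and shSORD (blue), filled where the adjusted p was under 0.05. In the ERK response list 7 genes rise and 9 fall with shAKR1B1, and 1 rises and 14 fall with shSORD.

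The genes most like the most abundant receptor and ligand by CPM were sought among 13221 genes with a mean of at least 50 counts, by Pearson's r of log2 CPM over the 9 libraries, which fall into 3 groups of 3. For EGFR these were ANTXR1, a membrane receptor for anthrax toxin (r = 0.996), NPTX1, a neuronal pentraxin (0.995), and CDH2, N-cadherin (0.994). Through this choice each shared the order of EGFR, with its highest mean in shSORD cells and its lowest in shAKR1B1 cells. Their range was wider than that of EGFR: NPTX1 averaged 7.74 CPM in shAKR1B1 cells, 81.6 CPM in shSORD cells and 34.6 CPM in plko cells. For EREG they were SLC16A6, of the monocarboxylate transporter family (0.997), DHX33, an RNA helicase (0.997), and GALNT10, an enzyme of protein glycosylation (0.997). SLC16A6 averaged 0.80 CPM in shAKR1B1 cells, 0.443 CPM in shSORD cells and 3.79 CPM in plko cells. These r are descriptions of 9 libraries in 3 groups.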

How the data were processed

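Per the labels, libraries were made from A549 RNA with a stranded mRNA kit. The deposited table holds the authors' raw counts per Ensembl gene for 9 libraries. Per the submitters' processing notes the tools were cutadapt 1.9.1, STAR 2.5.2b, featureCounts 1.5.1 and DESeq2 1.12.3, on GRCh37, with no annotation release, strand setting or rule for multiply mapped reads given in the sources used here. Symbols matched 51996 of 57905 IDs. Lengths came from GENCODE 29 and promoter windows from RefSeq, both on GRCh38, so no coordinates of the counts are given.

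Genes were tested in edgeR 4.0.16 (R 4.3.3) with a quasi-likelihood model that fits all 9 libraries together, group by group. The groups share an estimate of the spread, although shSORD libraries varied more, so SE and p-values do not reflect the spread of each group. In edgeR fits of only the 6 libraries compared, the adjusted p of ERBB2 was 5.93e-17 with shAKR1B1 and 1.23e-07 with shSORD. Library sizes were TMM-scaled, 16916 genes passed filterByExpr, and p-values were Benjamini-Hochberg adjusted across them. SE is the absolute log2 fold change over the square root of F. The edgeR fit was also run on simulated counts with known changes. Alternatives were other scalings and filters, DESeq2 1.42.0, the 6 libraries compared, a replicate block and each library left out. The family, lists, rules and tests were chosen with earlier results of these data known. Named were the 10 members, up to 3 called genes with the largest change per list and knockdown, and 3 similar genes for the most abundant receptor and ligand. One gene that this rule names is not reported here. Same-numbered shAKR1B1 and shSORD libraries deviated together (r = 0.252, 0.37 and 0.265). Those of plko did not (r from -0.0926 to 0.0845). The main fit does not use the numbers, so its p-values ignore any such pairing, and the block is an alternative only. The labels give no pairing, and the replicate block was fitted over all 9 libraries, plko included.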

Additional observations from a re-analysis of the deposited data

How the results depend on the processing

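Against plko, the log2 fold changes of EGFR, ERBB2, ERBB3, AREG, EREG and HBEGF with both hairpins and of TGFA with shSORD kept direction and call in all 17 alternatives, as did EGFR, ERBB3, EREG and TGFA between the knockdowns. Values near the threshold did not. TGFA with shAKR1B1 (0.15 to 0.23) was called in 6 alternatives, among them without shSORD replicate 2 or 3 (adjusted p = 0.0422 and 0.0202). Another was the fit of only the 6 libraries compared, which leaves out all shSORD libraries (adjusted p = 0.0106). BTC with shSORD (0.41 to 0.80) was called in 8, among them without shSORD replicate 2 or shAKR1B1 replicate 2 (adjusted p = 0.00191 and 0.0363). Between the knockdowns ERBB2 was called in 2 (without shSORD replicate 2, adjusted p = 0.0253) and HBEGF in 7 (without shAKR1B1 replicate 3 or shSORD replicate 2, adjusted p = 0.0226 and 0.0297). BTC with shAKR1B1, not called at -0.21, ranged from -0.33 to 0.017 with 1 library left out, turning at 0.017 without shAKR1B1 replicate 2. Between shAKR1B1 and shSORD 2 members were lower, but 1 with only the 6 libraries compared, and 1 to 3 with 1 library left out. The count was 3 with upper-quartile scaling, library totals only, no expression filter, a stricter filter or the replicate block. The cause was not tested. With the replicate block, genes called higher and lower numbered 4841 and 5153 with shAKR1B1 (4705 and 5010 without it), 4742 and 5076 with shSORD (4655 and 4910), and 2943 and 2699 between the knockdowns (2626 and 2558). The block also called BTC higher with shSORD (adjusted p = 0.0273), and changed no member's call beyond BTC, ERBB2 and HBEGF. Low counts limit AREG, HBEGF and BTC, and ERBB4 and EPGN could not be tested.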
